A study of Mus musculus with 6 samples.

Results

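The genes described here are 10 members of the tumour necrosis factor (TNF) receptor superfamily: Tnfrsf1a, Tnfrsf1b, Tnfrsf9, Tnfrsf10b, Tnfrsf11a, Tnfrsf12a, Tnfrsf14, Tnfrsf18, Tnfrsf21 and Fas. They were taken by gene symbol from a table of 15139 gene rows, and all 10 had a row. The libraries are messenger RNA of primary mouse bone marrow cells, cultured in RPMI medium to week 1 with the cytokines SCF (stem cell factor) at 50 ng/ml and IL3 (interleukin 3) at 10 ng/ml. The WT group (MxCre+v: Dnmt3a+/+) has 3 libraries. The knockout group (MxCre+v: Dnmt3a-/-) is labelled as deleted for Dnmt3a, a de novo DNA methyltransferase; which exons were removed is not stated in the labels. Of its 3 labelled samples, replicates 2 and 3 are used. Replicate 1 was not analysed here, as the deposited table has no column for it. Both groups carry MxCre, a Cre recombinase under the interferon-inducible Mx promoter, which acts in blood cells and also in other tissues. One label field calls the knockout a knockdown. Age, the means of inducing Cre and whether replicates are separate animals were not given in the sources used here. P-values therefore measure the spread between these libraries, in which technical and biological parts cannot be separated.

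Receptors of this superfamily are membrane proteins that bind trimeric ligands of the TNF superfamily. One class carries an intracellular death domain, through which adaptors such as TRADD and FADD can reach NF-kappaB signalling or caspase 8. The other class binds TRAF adaptors directly and signals mainly to NF-kappaB and MAP kinases. In the marrow, TNF acts on stem cells, monocytes and granulocytes, and the RANK receptor drives the formation of osteoclasts from monocyte precursors.

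Levels are FPKM, fragments scaled by gene length and by library total; genes can therefore be compared with each other, but the depth of a library is unknown. The libraries had FPKM sums of 560387 to 604368. Dnmt3a itself measured 6.68, 9.99 and 9.04 FPKM in the WT libraries (in order of replicate, as in all such lists) and 2.58 and 3.42 FPKM in the 2 knockout libraries. The knockout libraries lay below all WT libraries (log2 change -1.25, limma adjusted p = 0.00279). Sex was not balanced between the groups. WT replicates 2 and 3 expressed Xist (14.4 and 15.3 FPKM), whereas WT replicate 1 and the knockout libraries expressed the Y-linked Ddx3y (12.98 to 14.8 FPKM). A fit with sex as a covariate rests on WT replicate 1 as the only WT library of the sex of the knockout. Its values are given beside the results they alter. Without WT replicate 1, sex and genotype coincide, so fits that leave it out cannot separate them. Every log2 change is knockout minus WT after adding 1 to the FPKM, from limma fitted to 11365 genes with at least 1 FPKM in at least 2 libraries. A gene is said to have risen or fallen where its p, adjusted over all these genes by Benjamini-Hochberg, was under 0.05.

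The genes for both TNF receptors were strongly lower in the knockout. Tnfrsf1a and Tnfrsf1b, which encode TNFR1 and TNFR2, fell 2.94-fold and 3.37-fold, while Tnfrsf10b and Tnfrsf18 rose 1.59-fold and 1.27-fold. Of the 10 members, 4 fell (Tnfrsf1a, Tnfrsf1b, Tnfrsf11a and Tnfrsf14), 2 rose (Tnfrsf10b and Tnfrsf18) and 4 did not pass (Tnfrsf9, Tnfrsf12a, Tnfrsf21 and Fas). All 10 passed the filter on low values, Tnfrsf11a through the WT libraries alone. Over all tested genes 22.1% passed, with 9.08% higher and 13% lower. After upper-quartile scaling 52.5% of the calls over all genes were higher, against 41.2% without it. The members' median log2 change was -0.21, against -0.04 over all tested genes. With sex as a covariate 4 members passed, all lower: Tnfrsf1a, Tnfrsf1b, Tnfrsf14 and Fas. The number passing was 3 on leaving out WT replicate 1 or 2 and 2 on leaving out KO replicate 2. Of 14 monocyte and macrophage marker genes, 12 fell as well, with a median log2 change of -1.27, and in bulk samples fewer cells of a type and less RNA per cell cannot be told apart. Their part in the receptor results was not tested.

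**Figure D1:**
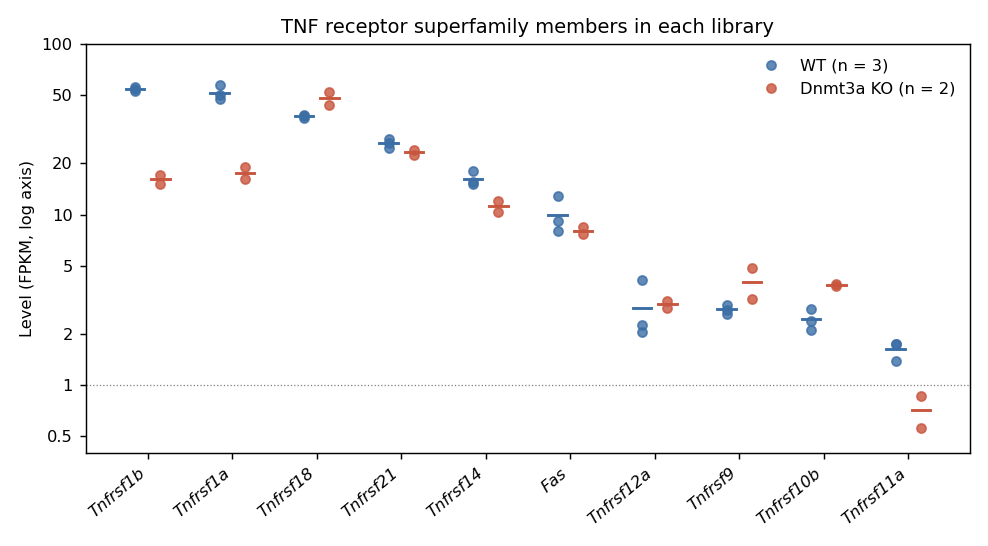
Level of each member in FPKM on a log axis, 1 point per library (blue, 3 WT libraries; red, 2 Dnmt3a knockout libraries), with a horizontal line at each group's mean; members are ordered by WT mean and the dotted line marks 1 FPKM. Tnfrsf1b and Tnfrsf1a stand highest in WT, at about 50 FPKM, and lie under 20 FPKM in the knockout.

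Tnfrsf1a (gene 21937) encodes TNFR1, the death domain receptor for soluble TNF that most cell types carry. It lies on chromosome 6 from 125349723 to 125362483 (GRCm38.p6). Its level was 57.24, 50.12 and 47.87 FPKM in WT and 19.04 and 16.20 FPKM in the knockout. The knockout libraries were both far below the lowest WT library. Mean levels were 51.7 ± 4.89 FPKM in WT (SD, n = 3) and 17.6 ± 2.01 FPKM in the knockout (SD, n = 2), with a difference past the threshold (log2 change -1.50, SE 0.11, limma adjusted p = 0.000326).

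Tnfrsf1b (gene 21938) encodes TNFR2, which binds TRAF2 and responds best to membrane-bound TNF. It lies on chromosome 4 from 145212368 to 145246870. Its level was 52.76, 55.99 and 54.32 FPKM in WT and 17.16 and 15.08 FPKM in the knockout, again without overlap. Mean levels were 54.4 ± 1.61 FPKM in WT (SD, n = 3) and 16.1 ± 1.47 FPKM in the knockout (SD, n = 2), with a difference past the threshold (log2 change -1.70, SE 0.08, limma adjusted p = 0.000236). This was the largest fall among the 10 members.

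The calls of Tnfrsf1a and Tnfrsf1b held under all 16 alternative settings, with log2 changes of -1.65 to -1.39 and of -1.78 to -1.61. They are also the 2 members with an adjusted p under 0.05 in the authors' deposited table (0.000551 and 4.14e-07), in which 8.1% of the genes tested here were under that threshold. In that table the other 8 members had adjusted p-values of 0.157 or more.

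The 2 genes were expressed in near-equal amounts. The ratio of Tnfrsf1b to Tnfrsf1a was 0.922, 1.12 and 1.14 in the WT libraries and 0.901 and 0.931 in the knockout libraries. Together they made up 50.8% to 52.9% of the summed FPKM of the 10 members in WT and 25.5% and 24.2% in the knockout. The sum of all 10 was 215, 201 and 201 FPKM in WT and 142 and 129 FPKM in the knockout. The sum of the other 8 overlapped between the groups, at 105, 94.7 and 98.9 FPKM in WT and 106 and 98.2 FPKM in the knockout. The lower total in the knockout was thus carried by Tnfrsf1a and Tnfrsf1b.

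The sequences before the annotated starts of these genes are shown because they fell together in cells labelled as knockout for a DNA methyltransferase. Capitals mark CpG dinucleotides, the sites that such enzymes methylate. The sequences are from RefSeq (GRCm38.p6), read 5′ to 3′ on the strand of the gene and ending at the base before the start. That of Tnfrsf1a (chr6:125349509-125349722, plus strand) begins after an exon of another annotated transcript, and that of Tnfrsf1b is chr4:145246871-145247120, minus strand.
Tnfrsf1a: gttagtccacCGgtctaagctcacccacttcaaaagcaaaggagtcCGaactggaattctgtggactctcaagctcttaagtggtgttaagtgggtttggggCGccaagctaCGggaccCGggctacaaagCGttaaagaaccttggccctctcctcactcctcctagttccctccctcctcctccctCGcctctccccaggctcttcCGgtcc
Tnfrsf1b: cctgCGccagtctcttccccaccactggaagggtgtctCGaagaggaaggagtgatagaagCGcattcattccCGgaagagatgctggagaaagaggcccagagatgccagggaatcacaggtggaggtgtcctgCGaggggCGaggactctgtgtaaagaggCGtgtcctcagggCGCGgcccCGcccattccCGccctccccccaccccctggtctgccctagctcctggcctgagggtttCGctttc

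The 2 stretches hold 8 CpG in 214 bases and 12 CpG in 250 bases. Of the 10 members, 9 have an entry in that RefSeq table (none for Tnfrsf10b). Over the 250 bases before the start, CpG numbered 9 for Tnfrsf1a and 12 for Tnfrsf1b, above 59.7% and 66.5% of the 32851 promoters in the table, whose median was 6. Tnfrsf11a, which also fell, had 31, while Tnfrsf14, which fell, and Tnfrsf18, which rose, had 2 each. The bases counted for Tnfrsf14 (154928078 to 154928327, minus strand) lie inside the span of the gene, which ends at 154928620. Those of Tnfrsf11a (to 105780722) and Fas (to 34290658) run into their genes, which begin at 105780673 and 34290647. Those of the second Tnfrsf9 start (150927749 to 150927998) lie inside that gene. The members whose expression did not pass had 12 (Tnfrsf21), 15 (Tnfrsf12a), 11 (Fas) and 4 (Tnfrsf9, at each of its starts). Methylation itself was not measured in these libraries.

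Motifs were searched on both strands of the same 250 bases. The NF-kappaB pattern, GGG and CC with 5 bases of any kind between them, occurs in 45.8% of all promoters of that length. It was found for 6 of the 9 members at their first listed start, among them Tnfrsf1a and Tnfrsf1b. The match of Tnfrsf1a begins 216 bases before the start, just outside the stretch printed, and runs into it. Tnfrsf1b had 3 overlapping matches that begin between 77 and 71 bases before its start. The AP-1 pattern TGANTCA, present in 6.75% of promoters, was found for Fas, and for Tnfrsf9 at its other start. The ETS pattern GAGGAAG, present in 10.6%, was found for Tnfrsf1b, 208 bases before the start.

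Among the other death domain receptors, the TRAIL receptor gene rose and those for Fas and DR6 did not pass. Tnfrsf10b (gene 21933, chromosome 14, 69767472 to 69784411) encodes the death receptor for TRAIL. Its level was 2.39, 2.09 and 2.81 FPKM in WT and 3.80 and 3.91 FPKM in the knockout. Both knockout libraries were above all WT libraries, and the mean rose 1.59-fold (log2 change 0.51, SE 0.13, limma adjusted p = 0.0296). Including sex as a covariate removed this call (adjusted p = 0.139), as did leaving out WT replicate 1 or 2 (0.0683 and 0.0851) or either knockout library (0.0797 without replicate 2 and 0.113 without replicate 3), while the log2 change stayed between 0.43 and 0.65 over all alternatives.

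Fas (gene 14102, chromosome 19, 34290647 to 34327775) encodes the receptor for Fas ligand, which recruits FADD and caspase 8. Its level was 12.87, 9.15 and 7.96 FPKM in WT and 8.41 and 7.69 FPKM in the knockout. The groups overlapped, with WT replicate 1 the highest library, and the change did not pass (log2 change -0.26, SE 0.18, adjusted p = 0.354). With sex as a covariate, where WT replicate 1 is the comparator, it passed (-0.62, adjusted p = 0.0388), and without WT replicate 1 it was -0.08 (adjusted p = 0.720). The value for Fas thus rests on that library, without which sex and genotype coincide.

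Tnfrsf21 (gene 94185, chromosome 17, 43016555 to 43089188) encodes DR6, a death domain receptor without a TNF-family ligand that is generally accepted. Its level was 27.61, 24.44 and 26.35 FPKM in WT and 22.42 and 23.89 FPKM in the knockout. The knockout libraries were below the WT libraries by a narrow margin, and the change did not pass (log2 change -0.17, SE 0.08, adjusted p = 0.201). With the fall of Tnfrsf1a, Tnfrsf21 stood above Tnfrsf1a in both knockout libraries and below it in every WT library.

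Among the TRAF-binding receptors, those for LIGHT and RANK ligand fell and that for GITR ligand rose. Tnfrsf14 (gene 230979, chromosome 4, 154918487 to 154928620) encodes HVEM, which binds LIGHT and the inhibitory receptor BTLA. Its level was 17.90, 15.49 and 15 FPKM in WT and 10.31 and 12.00 FPKM in the knockout. The groups did not overlap, and mean levels were 16.1 ± 1.55 FPKM in WT (SD, n = 3) and 11.155 ± 1.195 FPKM in the knockout (SD, n = 2), with a difference past the threshold (log2 change -0.49, SE 0.11, limma adjusted p = 0.0172). Of the 16 alternatives, leaving out KO replicate 2 was the one that removed the call (adjusted p = 0.0646).

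Tnfrsf11a (gene 21934, chromosome 1, 105780673 to 105849444) encodes RANK, the receptor on osteoclast precursors. It was the lowest of the 10 members, at 1.75, 1.74 and 1.38 FPKM in WT and 0.56 and 0.86 FPKM in the knockout. It reached 1 FPKM in the WT libraries alone, so it entered the test only through the group in which it is high. The fall passed (log2 change -0.62, SE 0.15, limma adjusted p = 0.0280), and with a pseudocount of 0.1 the log2 change was -1.11. Including sex as a covariate removed the call (adjusted p = 0.0972), as did leaving out WT replicate 1 (0.0687), WT replicate 2 (0.0826) or KO replicate 2 (0.112).

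Tnfrsf18 (gene 21936, chromosome 4, 156026322 to 156028894) encodes GITR, a costimulatory receptor best known on regulatory T cells. Its level was 38.07, 36.89 and 38.25 FPKM in WT and 52.17 and 43.76 FPKM in the knockout. Both knockout libraries were above the WT libraries, and mean levels were 37.7 ± 0.739 FPKM in WT (SD, n = 3) and 48.0 ± 5.95 FPKM in the knockout (SD, n = 2). The rise passed (log2 change 0.33, SE 0.09, limma adjusted p = 0.0373). Including sex as a covariate (adjusted p = 0.194) or omitting the mean-variance trend (0.0637) removed the call, as did leaving out any WT library (0.0835, 0.119 and 0.0970) or KO replicate 2 (0.0791). An antisense gene, Gm16008, shares exon bases with Tnfrsf18, and without knowing whether counting used strand, the reads of the pair cannot be told apart.

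Tnfrsf9 (gene 21942, chromosome 4, 150920155 to 150946104) encodes CD137, a costimulatory receptor of activated T cells that activated mast cells also carry. Its level was 2.77, 2.61 and 2.96 FPKM in WT and 4.88 and 3.2 FPKM in the knockout. Both knockout libraries were above the WT libraries, but they differed widely from each other, and the change did not pass (log2 change 0.40, SE 0.16, adjusted p = 0.125). Without KO replicate 3, the lower of them, it passed (0.64, adjusted p = 0.0333).

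Tnfrsf12a (gene 27279, chromosome 17, 23675445 to 23677449) encodes Fn14, the receptor for TWEAK, which is low in resting cells and induced by growth factors. Its level was 2.06, 2.26 and 4.15 FPKM in WT and 3.11 and 2.84 FPKM in the knockout. The knockout libraries lay within the WT range, whose top was WT replicate 3, and the change did not pass (log2 change 0.10, SE 0.23, adjusted p = 0.805). Its sign turned without WT replicate 1 (-0.04).

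Over the 10 members, the knockout libraries lay below all WT libraries for 5 genes, above them for 3 and overlapped them for 2. Over all tested genes the groups did not overlap for 51.1%, with the knockout below in 30.8% and above in 20.4%. In WT the order of mean levels was Tnfrsf1b, Tnfrsf1a, Tnfrsf18, Tnfrsf21, Tnfrsf14, Fas, Tnfrsf12a, Tnfrsf9, Tnfrsf10b and Tnfrsf11a. The ranges of neighbours overlapped between Tnfrsf1b and Tnfrsf1a, between Tnfrsf12a and Tnfrsf9 and between Tnfrsf9 and Tnfrsf10b. In the knockout the order was Tnfrsf18, Tnfrsf21, Tnfrsf1a, Tnfrsf1b, Tnfrsf14, Fas, Tnfrsf9, Tnfrsf10b, Tnfrsf12a and Tnfrsf11a. There the ranges overlapped between Tnfrsf1a and Tnfrsf1b and between Tnfrsf9 and Tnfrsf10b.

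**Figure D2:**
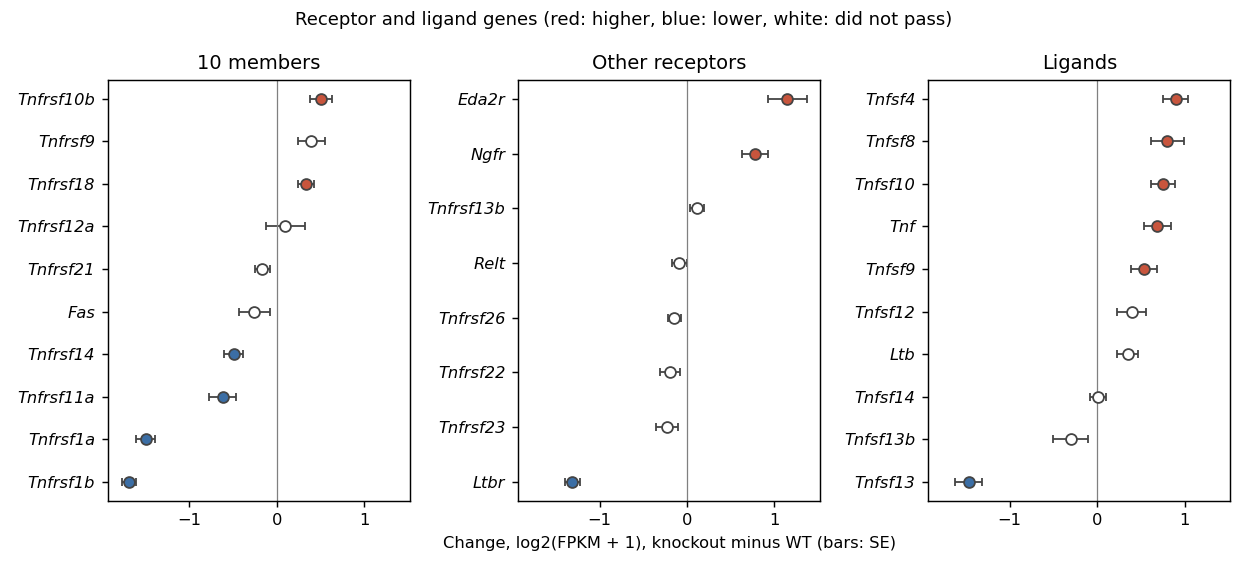
Change of each tested gene on the log2(FPKM + 1) scale, knockout minus WT, with its SE as a bar, for the 10 members, 8 other receptors of the superfamily and 10 ligands; red marks genes that rose, blue genes that fell and white genes that did not pass. Tnfrsf1b, Tnfrsf1a, Ltbr and Tnfsf13 lie below -1, and 5 ligands lie to the right of 0 in red.

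Most other receptor genes of the family were low or did not pass. Of 18 other receptor genes listed, 15 were in the table and 8 were tested. Of these 1 fell and 2 rose (37.5%, against 22.1% of all tested genes). Both genes that rose were tested through the knockout libraries alone, and of the 6 genes that passed the filter in both groups 1 was called. Ltbr, the lymphotoxin beta receptor, fell like the TNF receptors. Its level was 28.28, 29.68 and 26.15 FPKM in WT and 10.41 and 10.96 FPKM in the knockout (log2 change -1.31, SE 0.08, limma adjusted p = 0.000243), and the call held under all 16 alternatives. It is a neighbour of Tnfrsf1a on chromosome 6, from 125306571 to 125313885.

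Ngfr (the neurotrophin receptor p75; 0.79, 0.54 and 0.84 FPKM in WT, 1.91 and 2 in the knockout) and Eda2r (a receptor of ectodysplasin; 0.84, 0.45 and 0.59 FPKM in WT, 1.87 and 3.49 in the knockout) rose from low levels, by 0.78 (limma adjusted p = 0.00967) and 1.15 (0.0101) on the log2 scale. Without KO replicate 2 or 3 neither was tested. With sex as a covariate neither passed (adjusted p = 0.0761 and 0.0841). In the authors' deposited table neither was under 0.05 (adjusted p = 0.635 and 0.124), whereas Ltbr was (5.28e-07). Tnfrsf13b, which encodes TACI, a receptor of the B cell factors BAFF and APRIL (log2 change 0.12, adjusted p = 0.338), and Relt (-0.09, 0.506) did not pass. Nor did Tnfrsf26 (-0.15, 0.216), Tnfrsf22 (-0.20, 0.263) and Tnfrsf23 (-0.23, 0.248), close relatives in 1 cluster on chromosome 7 whose reads may be shared; Tnfrsf23 and Tnfrsf26 also overlap an antisense gene, E230032D23Rik. The 7 genes not tested were Cd40, Cd27, Tnfrsf4, Tnfrsf8, Tnfrsf11b, Tnfrsf13c and Tnfrsf25, all under 1 FPKM in every library.

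Among the ligands more genes rose than fell. Of 18 ligand genes listed, 13 were in the table and 10 were tested. Of these 5 rose and 1 fell (60.0%, against 22.1% of all tested genes), with a median log2 change of 0.47 against -0.04. Tnf rose while its receptor genes fell. Of 12 mast cell markers, 8 rose as well, and their part in the ligand results was not tested. Its level was 5.63, 5.25 and 6.77 FPKM in WT and 8.53 and 11.83 FPKM in the knockout (log2 change 0.69, SE 0.15, limma adjusted p = 0.0189). The summed FPKM of Tnfrsf1a and Tnfrsf1b was 19.5, 20.2 and 15.1 times that of Tnf in the WT libraries and 4.24 and 2.64 times in the knockout libraries. Including sex removed the call of Tnf (adjusted p = 0.0819), as did leaving out WT replicate 2 (0.0589) or KO replicate 3 (0.0933). In the authors' deposited table the adjusted p of Tnf was 0.000253. The other 4 ligands that rose here were not under 0.05 in the authors' deposited table (Tnfsf10 0.114, Tnfsf9 0.154, Tnfsf4 0.173 and Tnfsf8 0.254).

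**Figure D3:**
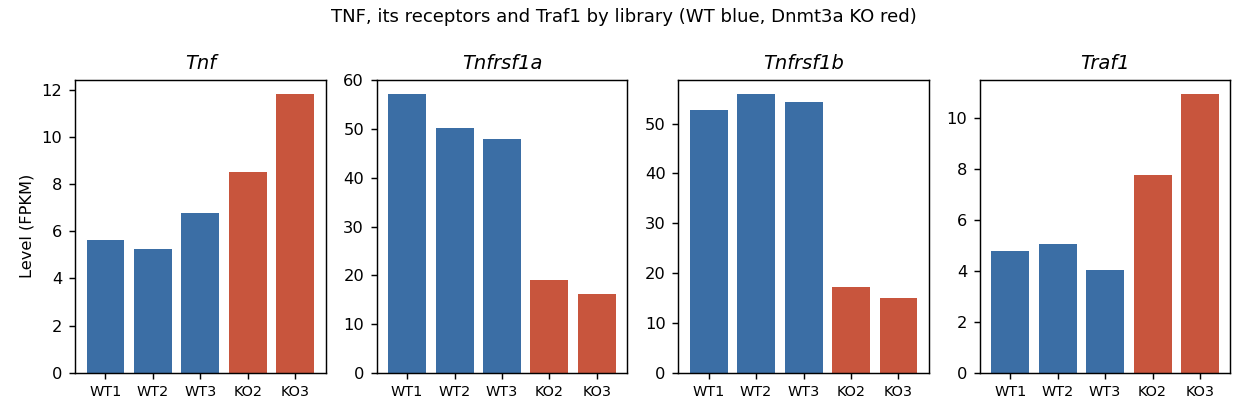
Level in FPKM of Tnf, its receptor genes Tnfrsf1a and Tnfrsf1b and the adaptor gene Traf1, 1 bar per library (WT replicates 1 to 3 in blue, KO replicates 2 and 3 in red), each panel on its own axis from 0. Tnf and Traf1 are higher in both knockout libraries than in any WT library, and the receptors are lower.

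Tnfsf10, which encodes TRAIL, the ligand of the Tnfrsf10b product, rose together with its receptor. Its level was 1.33, 1.36 and 1.22 FPKM in WT and 2.58 and 3.21 FPKM in the knockout (log2 change 0.75, SE 0.13, limma adjusted p = 0.00731). The call was lost with sex as a covariate (0.0568) and on leaving out KO replicate 3 (0.0518). Tnfsf9, the ligand of CD137, was at 4.59, 3.49 and 3.33 FPKM in WT and 6.68 and 5.25 FPKM in the knockout (0.54, adjusted p = 0.0444). Gm11110 overlaps Tnfsf9 on the opposite strand, so its reads are uncertain. The Tnfsf9 call was lost with sex in the model (0.327), with no filter on low values (0.0782), after quantile normalization (0.0521) and on leaving out WT replicate 2 (0.119), WT replicate 3 (0.121), KO replicate 2 (0.176) or KO replicate 3 (0.0570).

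The ligands of the remaining members did not pass or were not tested. Tnfsf14, the HVEM ligand LIGHT, was at 28.5 ± 2.50 FPKM (SD, n = 3) in WT and 28.6 ± 1.29 FPKM (SD, n = 2) in the knockout (limma adjusted p = 0.961). Tnfsf12, the Fn14 ligand TWEAK (log2 change 0.39, adjusted p = 0.133), and Ltb, a partner of lymphotoxin alpha in the ligand of Ltbr (0.35, 0.0876), did not pass. Tnfsf12 passed without WT replicate 1 (0.55, adjusted p = 0.02), and Ltb without WT replicate 2 (0.45, 0.0441). Tnfsf11, the RANK ligand, and Lta were under 1 FPKM in every library and were not tested. Fasl and Tnfsf18 had no row.

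The other 3 ligands that passed lie outside the rule for naming genes and are named after their values were seen. The OX40 ligand gene Tnfsf4 rose (log2 change 0.90, adjusted p = 0.00481), with 0.77, 1.00 and 1.18 FPKM in WT and 2.69 FPKM in each knockout library. The CD30 ligand gene Tnfsf8 rose (0.80, 0.0213), a call lost with sex as a covariate (0.0932) and on leaving out replicate 3 of WT (0.0566) or of KO (0.0931). Tnfsf13, which encodes APRIL, fell from 14.5 to 4.55 FPKM (-1.47, adjusted p = 0.000955). Tnfsf12 and Tnfsf13 both share exons with the read-through gene Tnfsfm13, and Tnfsf13 with the antisense gene Tnfsf13os, so that their split of reads is uncertain. The number of ligands that passed was 2 with KO replicate 3 left out, with sex as a covariate or with a minimum mean of 5 FPKM, which 5 ligands reached.

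Few of the genes that act next to the receptors passed. Of 37 genes, all tested, 2 rose and 2 fell (10.8%, against 22.1% of all tested genes), with a median log2 change of -0.01 against -0.04. Traf1, an adaptor gene that NF-kappaB is known to induce, rose from 4.62 ± 0.528 to 9.35 ± 2.26 FPKM (SD, n = 3 and 2; log2 change 0.87, limma adjusted p = 0.00770), a call lost with sex as a covariate (0.0597). Map3k7, which encodes the kinase TAK1, rose from 16.8 to 25.2 FPKM (0.56, adjusted p = 0.00254) and kept its call under all 16 alternatives.

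Adam17, the protease that releases TNF and sheds its receptors, fell from 30.2 to 22.5 FPKM (-0.41, adjusted p = 0.00931, and 0.0532 with sex as a covariate). In the authors' deposited table the adjusted p was 0.815 for Adam17 and 0.994 for Ikbkb, against 8.7e-05 for Traf1 and 0.034 for Map3k7. Ikbkb, a kinase of the IKK complex, fell by 0.26 on the log2 scale (adjusted p = 0.0340), a call lost under 11 of the 16 alternatives (adjusted p up to 0.195), among them each scaling and the removal of any WT library or of KO replicate 3 (0.0961, 0.107, 0.129 and 0.0584). The adaptors and the caspase that bind the receptors did not pass: Traf2 (log2 change -0.01, adjusted p = 0.941), Tradd (-0.28, 0.0911), Fadd (0.07, 0.652), Ripk1 (-0.16, 0.269), Casp8 (-0.10, 0.339) and the caspase 8 inhibitor Cflar (0.00, 0.986). Tradd passed without KO replicate 2 (-0.41, adjusted p = 0.0323).

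Marker genes of several cell types moved with genotype. Of 14 monocyte and macrophage markers, 12 fell and none rose (Ly6c2 and Adgre1 did not pass). Their summed level was 6413 to 8316 FPKM in WT and 2759 and 2938 FPKM in the knockout. Lyz2 alone was at 4522.5 to 6477 FPKM in WT and 1311 and 1587 FPKM in the knockout. The median difference of the 14 markers from the WT mean was -1.27 and -1.32 in KO replicates 2 and 3. The corresponding values were -1.35 and -1.28 for Ltbr, -1.39 and -1.61 for Tnfrsf1a, and -1.61 and -1.78 for Tnfrsf1b. Tnfrsf1a and Tnfrsf1b were below the marker median in both libraries, and Ltbr in KO replicate 2 alone. Of 6 tested dendritic cell and MHC class II markers all fell (1590 to 2170 FPKM in WT, 155 and 311 in the knockout), Ciita being tested through the WT libraries alone. The defining Flt3, Zbtb46 and Xcr1, however, were under 1 FPKM in every library. Of 12 neutrophil markers 9 fell and none rose (22151 to 32789 FPKM in WT, 12754 and 16461 in the knockout). Of 12 mast cell markers 8 rose and none fell (11874 to 13637 FPKM in WT, 28120 and 32295 in the knockout). S100a9 and S100a8 made up most of the neutrophil sum, and Cpa3 most of the mast cell sum.

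Against Csf1r, the macrophage colony-stimulating factor receptor and a defining marker of that list, the ratio of Tnfrsf1a was 0.544, 0.494 and 0.528 in WT and 0.619 and 0.638 in the knockout. The ratio of Tnfrsf1b to Csf1r was 0.501, 0.552 and 0.599 in WT and 0.558 and 0.594 in the knockout. The receptor genes fell by no larger a factor than Csf1r, and the groups overlapped for the ratio of Tnfrsf1b. Csf1r was chosen after its values were seen. It fell further (log2 change -1.79) than the median of that list (-1.27), as did both receptor genes (-1.50 and -1.70).

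The remaining lists were as follows. Of 6 basophil markers 3 rose (5141 to 6597 FPKM in WT, 6139 and 6498 in the knockout), and of 6 eosinophil markers 1 rose (5089 to 7476 and 6915 to 9158 FPKM). Of 7 erythroid markers 1 rose and 3 fell (124 to 130 and 125 to 140 FPKM), and of 4 megakaryocyte markers 2 rose and 2 fell (282 to 322 and 293 to 364 FPKM). Lymphocyte markers were near 0: the 2 B cell markers in the table summed to 2.79 FPKM or less. Of the T and NK cell list, Cd3d, Cd4, Cd8a, Ncr1 and Klrb1c were at 1.08 FPKM or less in every library, and Nkg7, which fell, made up most of its sum (55.3 to 69.3 FPKM in WT, 38.1 and 41.9 in the knockout). These are markers of the lineage in which Tnfrsf18 and Tnfrsf9 are best known. Of the stroma and endothelium list, Col1a1, Col1a2, Cxcl12, Cdh5 and Kdr were under 1 FPKM, and Pecam1, which blood cells also express, rose (sums of 69.2 to 79.3 FPKM in WT, 105 and 115 in the knockout).

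**Figure D4:**
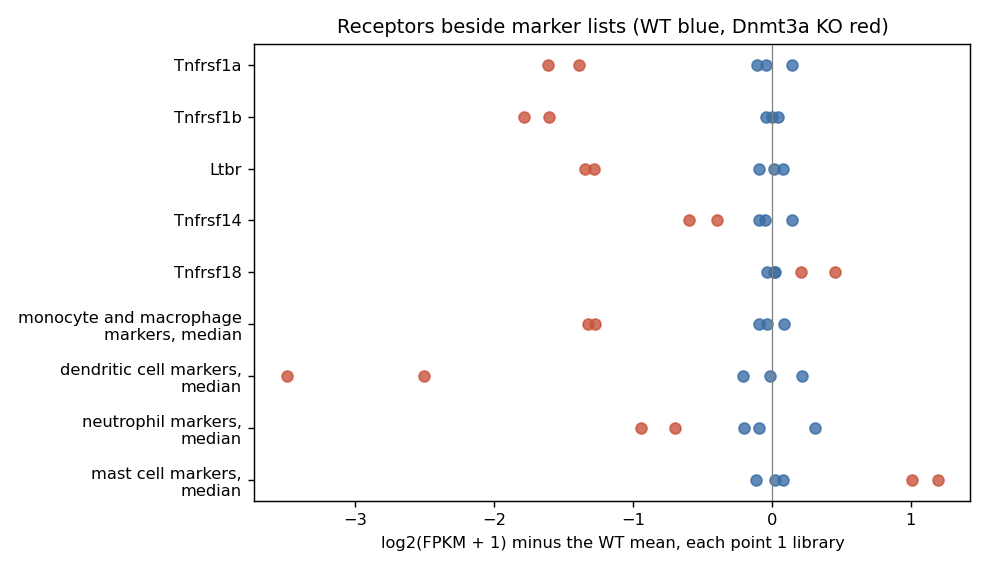
Difference of each library from the WT mean on the log2(FPKM + 1) scale for 5 receptor genes and for the median of 4 marker lists (blue, 3 WT libraries; red, 2 knockout libraries). The knockout points of Tnfrsf1a, Tnfrsf1b and Ltbr lie between -1.8 and -1.2, while those of the mast cell median lie at about 1 and above. Those of Tnfrsf1a and Tnfrsf1b lie below the monocyte and macrophage median in both libraries.

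The genes whose pattern over the 5 libraries was closest to that of Tnfrsf1b were Ms4a6d, App, Cpq, Klf4 and Rassf4, with a root mean square difference of 0.0342 to 0.0795 on the log2 scale after each gene was set to a WT mean of 0. The genes closest to Tnfrsf10b, the member with the largest rise, were Glcci1, Luzp1, Fbxo21, Taf7 and 9930014A18Rik, at 0.0169 to 0.0527. Klf4 is also in the monocyte and macrophage list and was already counted there among the genes that fell. The measure follows the size of the change, so it adds nothing to that count. Mean levels were under 1 FPKM for Luzp1 in WT (0.65 FPKM) and for Cpq in the knockout (0.83 FPKM).

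**Figure D5:**
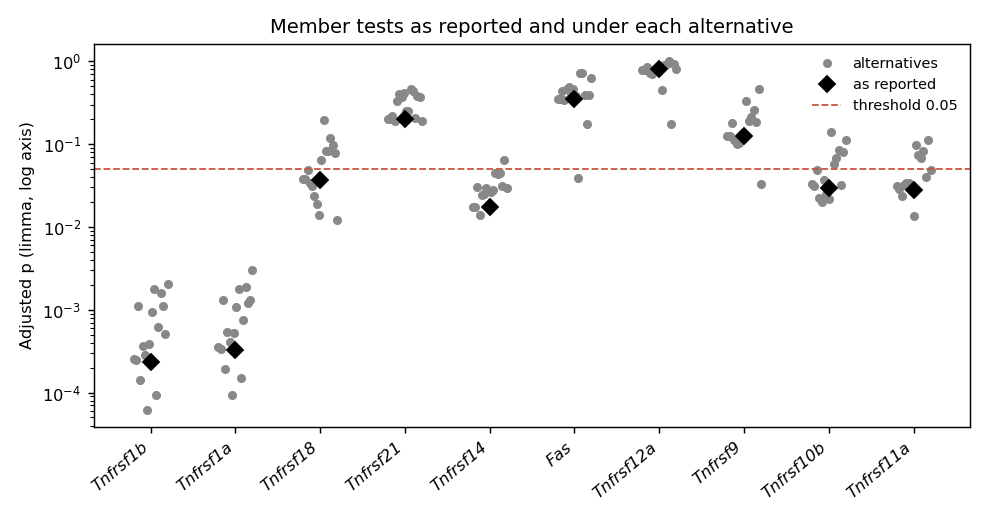
Adjusted p of each member on a log axis as reported (black diamonds) and under each alternative setting that tested it (grey points), with the threshold of 0.05 dashed. All points of Tnfrsf1b and Tnfrsf1a lie below the line, and those of Tnfrsf18, Tnfrsf10b and Tnfrsf11a lie on both sides of it.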

How the data were processed

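The authors deposited FPKM with 2 decimals in 1 table, which has columns for 3 WT and 2 knockout libraries and none for KO replicate 1. Among tools, the submitters' processing notes list HISAT, StringTie 1.2.1 and edgeR, and as build mm10, with no role or order. Annotation and strand setting: not given in the sources used here. A signed fold (a score) and p-values of the authors' own tests are also in the deposited table and are used here only where named. FPKM carry no read totals, and low values showed no whole-read steps (the commonest ratio between 2 libraries held at most 13.3% of low genes), so counting error is unknown.

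The members and gene lists were chosen with earlier results of these data known. Differences were tested with limma 3.58.1 (R 4.3.3) on log2(FPKM + 1), modelling genotype alone with a trend of variance on mean, which leaves 3 residual degrees of freedom. The procedure was tested on simulated data with the spread of the WT libraries and no difference of sex. That test therefore does not bear on the sex imbalance here. Named genes were all members, their tested ligands, all other tested receptors, the signalling genes that passed (up to 8) and 7 adaptors or regulators, and per marker list at most the 2 most abundant genes. Csf1r, Ciita and markers named as near 0 or as not passing were chosen after their values were seen. Positions and promoters come from RefSeq GRCm38.p6. Alternatives were pseudocount, filter, scaling, trend, sex, replicate block and leaving out each library.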

Additional observations from a re-analysis of the deposited data

How the results depend on the processing

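Over 38 genes, 593 tests under alternative settings gave the same direction and side of the threshold in 517 cases, a lost call in 49, a gained call in 6 and a turned sign in 21. Over all genes the number that passed was 1312 with sex as a covariate and 1623 to 2659 without single libraries, against 2507. The members that passed numbered 3 with the replicate block and 2 to 6 without single libraries. For the other receptors the number was 1 with sex as a covariate or a minimum mean of 5 FPKM, and 1 to 3 without single libraries. For the ligands it was 2 under those same settings and 2 to 7 without single libraries, and for the signalling genes 1 with sex as a covariate and 3 to 6 without single libraries.

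Signs turned for 4 genes, none of which passed under any setting. Tnfrsf12a had a log2 change of -0.0446 with the replicate block and -0.0446 to 0.331 without single libraries. Tnfsf14 was at -0.127 with sex as a covariate and at -0.0391 to 0.0759 without single libraries. Under median-of-ratios, upper-quartile, total and quantile scaling, Traf2 was at 0.0274, 0.0448, 0.0102 and 0.026 and Cflar at 0.0404, 0.0582, 0.0225 and 0.0489. With the block, Traf2 was at 0.0422 and Cflar at 0.00373, and without single libraries they ranged from -0.0941 to 0.0422 and from -0.0275 to 0.0224. The causes were not tested.

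Replicate numbers 2 and 3 occur in both groups, but nothing in the labels pairs them. The deviations of same-numbered libraries from their group means correlated at -0.0292 and 0.0985 across genes. As the deviations of the 2 knockout libraries are exact opposites, these values cannot decide on pairing. With the replicate block over the 4 libraries of replicates 2 and 3, 2081 genes passed, and Tnfrsf10b, Tnfrsf11a and Tnfrsf18 did not (adjusted p = 0.0569, 0.0737 and 0.0817). Sex and genotype coincide in those libraries, so the block cannot separate them. Leaving out a knockout library leaves 1, which is then assumed to vary like the WT libraries.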

Other observations

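Genes within 100 kb of the members were looked at after their values were seen. Of 28 tested neighbours of the 10 members, 3 rose and 6 fell (32.1%, against 22.1% of all tested genes), and 3 of these 9 were tested through 1 group alone. Beside Tnfrsf1a, Ltbr fell, and so did Scnn1a, which encodes a subunit of the epithelial sodium channel and lies between the 2 receptor genes. Scnn1a reached 1 FPKM in the WT libraries alone (1.46, 1.29 and 1.24 FPKM in WT, 0.74 and 0.53 in the knockout; log2 change -0.51, limma adjusted p = 0.0445). The tetraspanin gene Cd9, also within that distance, did not pass (-0.13, 0.430).

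Beside Fas, which did not pass, Stambpl1, a deubiquitinase gene, fell (7.81, 8.49 and 6.61 FPKM in WT, 4.55 and 4.53 in the knockout; log2 change -0.63, limma adjusted p = 0.00875). The smooth muscle actin gene Acta2 also fell there and was tested through the WT libraries alone (2.38, 2.82 and 1.79 FPKM in WT, 0.75 and 0.59 in the knockout; -0.99, 0.00659). Beside Tnfrsf14, Fam213b fell (-0.92, 0.0118). Beside Tnfrsf18, Sdf4 rose (0.40, 0.00624) and Ube2j2 fell (-0.30, 0.0493). Errfi1 rose beside Tnfrsf9 (5.83 to 11.6 FPKM, adjusted p = 0.00382). Flywch2, 1 of 7 tested neighbours of Tnfrsf12a, rose and was tested through the knockout libraries alone (adjusted p = 0.00991). The single tested neighbour of Tnfrsf1b and that of Tnfrsf11a did not pass, and neither did the 4 of Tnfrsf10b.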
